A study of Homo sapiens with 6 samples.

Results

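The BCL2 family of apoptosis genes was followed in KGN cells, a human granulosa cell line, after depletion of the forkhead transcription factor FOXL2 by siRNA. Its 10 members were BCL2, BCL2L1, MCL1, BAX, BAK1, BCL2L11, BBC3, BID, PMAIP1 and BAD, out of 60671 genes listed in each library. They were taken by name, a rule that itself uses no measured value, but earlier results of these data were known when they were chosen. All 10 passed the filter on low counts that left 15663 genes to test. There were 3 FOXL2 siRNA libraries and 3 control siRNA libraries, all from cells labelled as FOXL2 WT/WT, which the study describes as edited to carry wild-type copies on both alleles. Cells received 30 pmol of siRNA and RNA was taken 30 h after transfection. The control group received a scrambled siRNA, and each FOXL2 siRNA library received its own pool of 3 siRNAs, so the 3 FOXL2 siRNA libraries also differ in the mixture used, with 1 siRNA common to all pools. Whether the edited line is a single clone, and whether the libraries came from separate cultures, is not given in the sources used here, so a p-value measures only the spread between these libraries, which may be technical.

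Proteins of the BCL2 family decide whether the outer membrane of the mitochondrion stays closed. The prosurvival members BCL2, BCL-XL (gene BCL2L1) and MCL1 hold their pro-apoptotic relatives in a groove on their surface. BAX and BAK1 are the effectors that form pores in the membrane and let cytochrome c out. The BH3-only proteins sense damage and stress: BIM (gene BCL2L11), PUMA (gene BBC3) and BID are usually counted as activators, since they can engage BAX and BAK directly, while NOXA (gene PMAIP1) and BAD are counted as sensitisers, which occupy the groove of the prosurvival proteins. In the ovary, apoptosis of granulosa cells accompanies the loss of follicles by atresia.

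The feature the members share at the sequence level is the BH3 helix, whose core runs from an invariant leucine to an invariant aspartate. The 18 bases that encode this core are shown to make the common element and its divergence visible. They were read from the coding sequence of 1 principal transcript per gene in GENCODE v29 on GRCh38, 5′ to 3′ on the coding strand, with the leucine codon and the aspartate codon in capitals. The BID transcript matched the core pattern at 2 places, in exons 3 and 4. The match in exon 4 is shown and was used in the comparisons.
BCL2: CTCcgccaggccggcGAC
BCL2L1: CTGagggaggcaggcGAC
MCL1: TTAcgacgggttgggGAT
BAX: CTCaagcgcatcgggGAC
BAK1: CTCgccatcatcgggGAC
BCL2L11: TTGcggcgtattggaGAC
BBC3: CTGcggcggatggcgGAC
BID: CTCgcccaggtcgggGAC
PMAIP1: CTCaggagatttggaGAC
BAD: CTCcggaggatgagtGAC

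The cores were alike at 7 to 14 of 18 positions over the 45 pairs of members, with a median of 10. BID had 14 identical positions with BAK1 and 14 with BCL2. The aspartate codon was GAC in 9 of 10 members, and MCL1 was the exception. The core lies at chr18:63318361-63318378 (minus strand) in exon 2 of 3 of BCL2, at chr20:31721934-31721951 (minus) in exon 2 of 3 of BCL2L1 and at chr1:150578877-150578894 (minus) in exon 1 of 3 of MCL1. In the effectors it lies at chr19:48955787-48955804 (plus) in exon 3 of 6 of BAX and at chr6:33575399-33575416 (minus) in exon 4 of 6 of BAK1. Among the activators it lies at chr2:111150103-111150120 (plus) in exon 4 of 5 of BCL2L11, at chr19:47226591-47226608 (minus) in exon 3 of 4 of BBC3 and at chr22:17739427-17739444 (minus) in exon 4 of 6 of BID. In the sensitisers it lies at chr18:59902673-59902690 (plus) in exon 2 of 2 of PMAIP1 and at chr11:64271634-64271651 (minus) in exon 3 of 4 of BAD.

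The library totals lay between 23843192 and 28791954 expected counts, the read counts per gene that RSEM estimates. FOXL2 itself had 248, 238 and 290 counts with control siRNA and 72, 80 and 68 with FOXL2 siRNA, which is 25.99%, 32.61% and 23.26% of the control mean after normalization. It fell by 1.88 on the log2 scale (SE 0.143, edgeR adjusted p = 0.00311), and without control siRNA replicate 1 the value was -1.90 with an adjusted p of 0.0530. FOXL2 siRNA replicate 2 stood apart from the other 5 libraries on the first principal component, which held 31.2% of the variance, so the members were also tested without it. Of 11 granulosa cell markers other than FOXL2, FSHR and WT1 were at 0 in every library, AMHR2 reached at most 0.05 TPM (a level scaled to transcript length and to the library) and CYP19A1 at most 0.68, whereas NR5A1 lay between 34.6 and 39.2 TPM and FST between 62.5 and 73.0 TPM. Only 6 of the 11 had counts high enough to test, and none of these was called. Of the 6, 1 had an unadjusted p below 0.05, against 13.4% of all genes. It was INHBB, with a log2 fold change of 0.22 (edgeR unadjusted p = 0.0374, adjusted p = 0.342) and no overlap in CPM. The summed level of all 11 was 143.6 to 152.8 TPM with control siRNA and 134.2 to 151.6 with FOXL2 siRNA.

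The family covered a wide range of levels in the control cells, and its order did not follow the roles. BAX, an effector, was the highest at 188.5 ± 11.2 TPM (SD, n = 3), above 94.9% of the genes tested. The prosurvival genes MCL1 at 146.0 ± 3.11 TPM and BCL2L1 at 132.8 ± 2.65 TPM came next. BAD followed at 84.2 ± 5.13 TPM, then BID at 38.7 ± 2.71, PMAIP1 at 29.7 ± 2.15, BAK1 at 26.7 ± 0.773 and BBC3 at 13.2 ± 1.42. BCL2L11 at 3.16 ± 0.442 TPM and BCL2 at 2.62 ± 0.125 TPM were the lowest, and BCL2 exceeded only 24.3% of the genes tested. The values of BCL2L11 and BCL2 overlapped over the 3 control libraries, and those of every other pair of neighbours in this order did not.

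**Figure D1:**
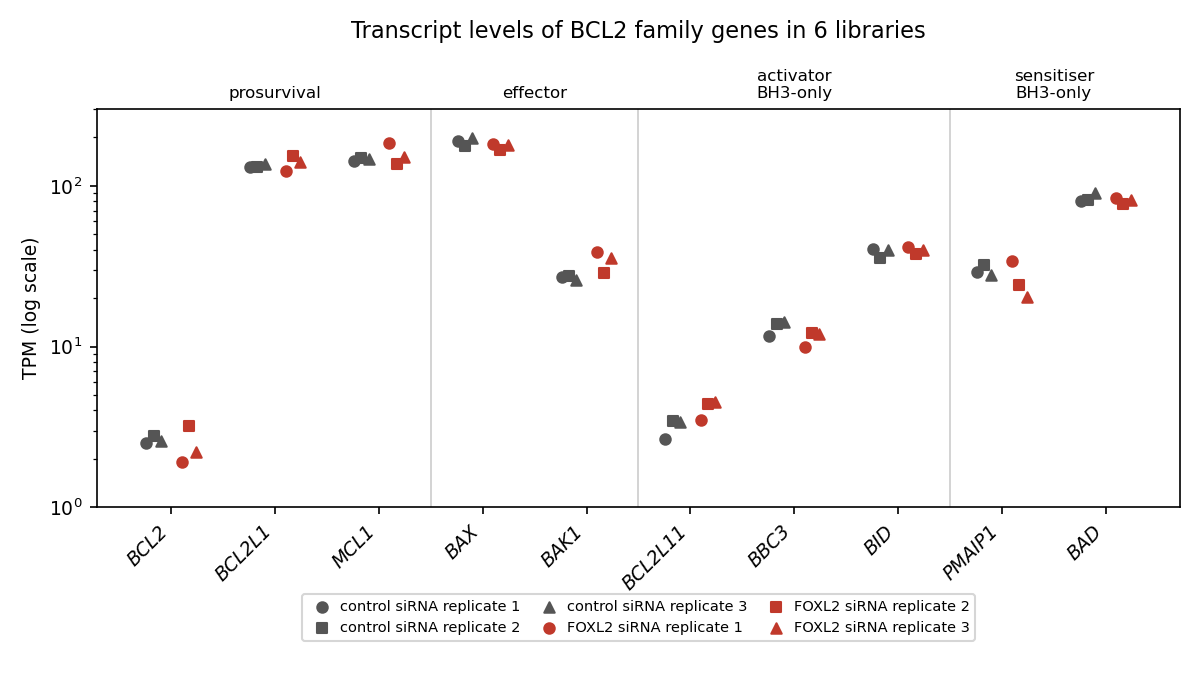
TPM of each member (log axis) in the 3 control siRNA libraries (grey) and the 3 FOXL2 siRNA libraries (red), grouped by role, with a symbol for each replicate number. The levels run from BCL2 and BCL2L11 at a few TPM to BAX, MCL1 and BCL2L1 above 100 TPM, and the conditions lie close to each other at every level.

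After FOXL2 depletion, no member of the family passed the threshold, an adjusted p below 0.05 in edgeR's quasi-likelihood test over all genes (0 of 10 called, against 41 of 15663 genes or 0.262%). DESeq2 also called 0 of 10, against 3.06% of the genes it tested. At an unadjusted p below 0.05 in edgeR there were 3 members, against 13.4% of all genes. BAK1 and BCL2L11 had the higher fitted level with FOXL2 siRNA (2 of 10, against 6.67% of all genes) and BBC3 the lower one (1 of 10, against 6.78%). The fitted log2 fold changes of FOXL2 siRNA over control siRNA were positive for 5 members and negative for 5. Their median was -0.01 and the median of their sizes 0.19, beside 0.01 and 0.12 over all genes tested. The depth was not the same limit for all: the lowest count of a member in a library was 103 for BCL2L11, where counting alone gives an error of 9.85%, and 7510 for MCL1, where it gives 1.15%.

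**Figure D2:**
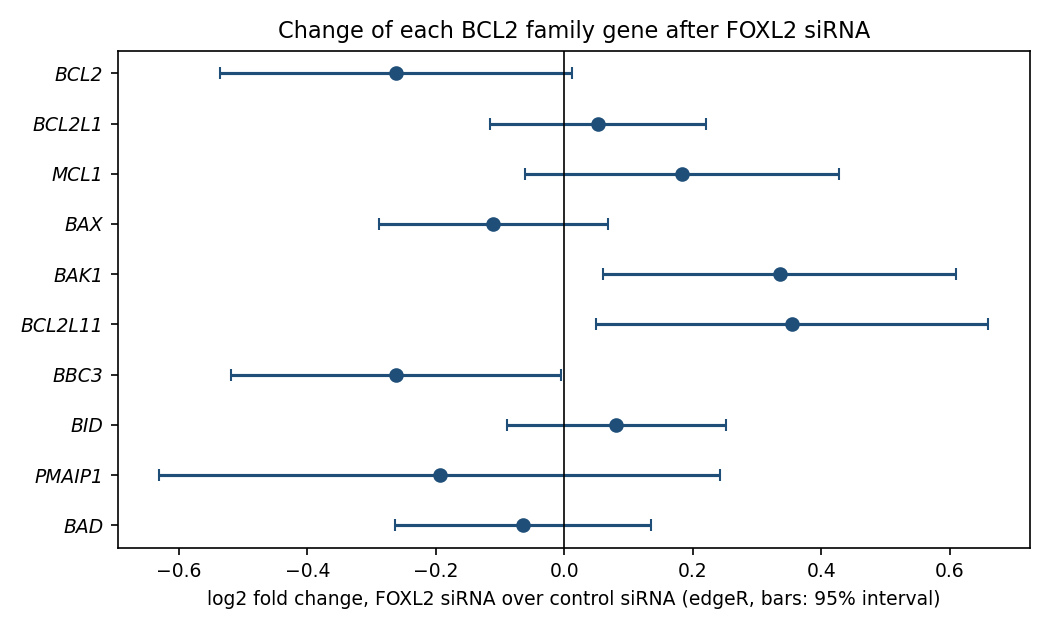
Log2 fold change of each member, FOXL2 siRNA over control siRNA, from edgeR, with 95% intervals (n = 3 per condition). The intervals of BAK1, BCL2L11 and BBC3 leave out 0 before adjustment over 15663 genes, and those of the other 7 members contain it.

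Among the prosurvival genes, BCL2 (chr18:63123346-63320128, minus strand) blocks apoptosis at the mitochondrion and gave the family its name. Its TMM-normalized level was 11.2, 12.1 and 11.9 CPM (counts scaled to the size of the library) with control siRNA and 8.31, 11.3 and 9.82 CPM with FOXL2 siRNA. The replicate 1 and 3 pools lay under all controls, while replicate 2 lay among them. The log2 fold change was -0.26 (SE 0.121, 95% interval -0.54 to 0.01, edgeR adjusted p = 0.385). On the TPM scale the same library, FOXL2 siRNA replicate 2, was the highest of all 6 at 3.18 TPM, against 2.52 to 2.76 with control siRNA and 1.92 and 2.20 in the other pools.

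BCL2L1 (chr20:31664452-31723989, minus strand) encodes BCL-XL and, by splicing, a short pro-apoptotic form. It was measured at 183.9, 183.4 and 198.6 CPM with control siRNA and 177.0, 203.9 and 206.0 CPM with FOXL2 siRNA. The conditions overlapped, and the fold was 1.04 with a 95% interval of 0.922 to 1.17 (edgeR adjusted p = 0.8001). MCL1 (chr1:150574551-150579738, minus strand) encodes a short-lived guardian that is turned over by the proteasome. It was measured at 313.1, 313.8 and 291.5 CPM with control siRNA and 415.6, 310.4 and 316.7 CPM with FOXL2 siRNA. FOXL2 siRNA replicate 1 was high, and the other pools lay at the control level. The fitted log2 fold change was 0.18 (SE 0.108, 95% interval -0.06 to 0.43, edgeR adjusted p = 0.492), and it was 0.03 without FOXL2 siRNA replicate 1.

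Of the effectors, BAX (chr19:48954815-48961798, plus strand), a cytosolic protein that moves to the mitochondrion when activated, was measured at 87.1, 80.8 and 95.2 CPM with control siRNA. With FOXL2 siRNA it was at 85.7, 76.5 and 81.5 CPM, so the conditions overlapped. The fold was 0.926 with a 95% interval of 0.819 to 1.05 (edgeR adjusted p = 0.573).

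BAK1 (chr6:33572547-33580293, minus strand) encodes the effector that resides in the outer mitochondrial membrane, and it had the smallest p of the family. Its level was 36.4, 36.6 and 35.6 CPM with control siRNA and 52.5, 36.5 and 47.9 CPM with FOXL2 siRNA. Replicates 1 and 3 lay far above the narrow range of the controls, and replicate 2 lay inside it. Its log2 fold change was 0.34 (SE 0.121, 95% interval 0.06 to 0.61, unadjusted p = 0.0222, edgeR adjusted p = 0.294, DESeq2 adjusted p = 0.172). Without FOXL2 siRNA replicate 2 the value was 0.47 with an edgeR adjusted p of 0.00961, a fit that called 3.33% of all genes, and without the filter on low counts it was 0.33 with an adjusted p of 0.0370, a fit that called 2.4%. On the TPM scale the conditions did not overlap, at 25.8 to 27.3 TPM against 28.8 to 38.5 TPM. The 28.8 TPM belongs to FOXL2 siRNA replicate 2, which lay inside the controls in CPM. The estimated length of BAK1 ranged over only 0.190% of its mean, so the 2 scales differ here by the scaling of the library. The share of all genes without overlap in TPM was not computed.

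Of the activators, BCL2L11 (chr2:111119378-111168447, plus strand) encodes BIM, a transcriptional target of forkhead factors of the FOXO class in several cell types. It was measured at 4.11, 4.90 and 4.22 CPM with control siRNA and 5.31, 6.24 and 5.38 CPM with FOXL2 siRNA. All 3 FOXL2 siRNA libraries lay above all 3 controls. Its fitted log2 fold change was 0.36 (SE 0.135, 95% interval 0.05 to 0.66, unadjusted p = 0.0273), and it did not pass the adjustment (edgeR adjusted p = 0.318, DESeq2 adjusted p = 0.468).

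BBC3 (chr19:47220822-47232766, minus strand) encodes PUMA, a direct target of p53. It was measured at 11.96, 13.83 and 14.07 CPM with control siRNA and 9.66, 11.65 and 11.93 CPM with FOXL2 siRNA. The FOXL2 siRNA libraries all lay under the controls, but FOXL2 siRNA replicate 3 at 11.93 and control siRNA replicate 1 at 11.96 CPM nearly touched, and in TPM the conditions overlapped. The log2 fold change was -0.26 (SE 0.113, 95% interval -0.52 to -0.01, unadjusted p = 0.0460, edgeR adjusted p = 0.363). BCL2L11 and BBC3 were the 2 of 10 members whose conditions did not overlap in CPM, a share near the 20.5% of all genes tested. In each direction it was 1 of 10, against 9.97% of all genes for higher and 10.6% for lower values.

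BID (chr22:17734138-17774770, minus strand), whose protein is cut by caspase-8 to link death receptors to the mitochondrion, was measured at 28.6, 26.6 and 29.1 CPM with control siRNA and 31.2, 28.2 and 29.7 CPM with FOXL2 siRNA. The conditions overlapped, and the log2 fold change was 0.08 (SE 0.0752, 95% interval -0.09 to 0.25, edgeR adjusted p = 0.673).

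Of the sensitisers, PMAIP1 (chr18:59899948-59904306, plus strand) encodes NOXA, a partner of MCL1. It was measured at 30.7, 32.2 and 30.8 CPM with control siRNA and 37.4, 24.6 and 19.9 CPM with FOXL2 siRNA. Replicate 1 lay above every control and replicates 2 and 3 lay under every control. The log2 fold change was -0.19 (SE 0.193, 95% interval -0.63 to 0.24, edgeR adjusted p = 0.696). It was -0.49 without FOXL2 siRNA replicate 1 (adjusted p = 0.115) and -0.01 without FOXL2 siRNA replicate 3.

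BAD (chr11:64269830-64284704, minus strand), whose protein is held inactive by phosphorylation and 14-3-3 proteins, was measured at 37.9, 37.3 and 43.0 CPM with control siRNA and 39.7, 34.3 and 39.1 CPM with FOXL2 siRNA. The conditions overlapped, and the log2 fold change was -0.06 (SE 0.0879, 95% interval -0.26 to 0.14, edgeR adjusted p = 0.792). In all 10 genes a difference in RNA per cell cannot be told apart from a difference in which cells remained, since RNA was taken from whole cultures.

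How far the 3 siRNA pools lay apart differed from member to member. The coefficient of variation of PMAIP1 was 2.65% over the control siRNA libraries and 33.1% over the FOXL2 siRNA libraries. That of BAK1 was 1.39% and 18.1%, that of MCL1 4.13% and 16.98%, and that of BCL2 3.91% and 15.4%. At the other end were BCL2L11 with 9.73% and 9.22%, BID with 4.68% and 5.11%, BAX with 8.24% and 5.65%, and BAD with 7.90% and 7.92%. The coefficient was larger with FOXL2 siRNA for 8 of 10 members, beside 66.8% of all genes tested, whose medians were 6.52% and 10.1%. FOXL2 siRNA replicate 1 was the highest of all 6 libraries for MCL1, BAK1, PMAIP1 and BID and the lowest for BCL2, BCL2L1 and BBC3. The share of all genes at an extreme in this library was not computed, and each pool had 1 library, so this is no trait of the family.

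**Figure D3:**
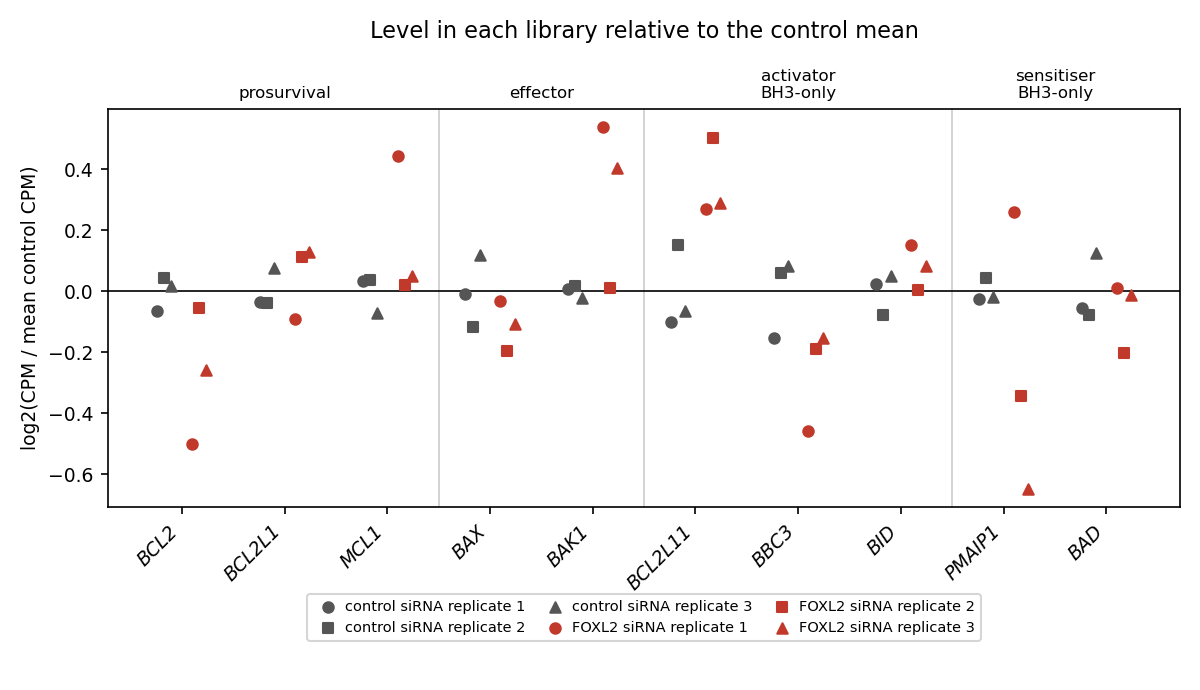
Log2 ratio of the TMM-normalized CPM in each library to the control mean of the gene, with control siRNA in grey, FOXL2 siRNA in red and a symbol for each replicate number. The control points stay near 0, while the 3 FOXL2 siRNA points of PMAIP1, BAK1, MCL1 and BCL2 lie far from each other.

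Summed over roles, the prosurvival genes reached 276.1, 282.2 and 286.1 TPM with control siRNA and 309.5, 292.0 and 294.8 TPM with FOXL2 siRNA. These sums did not overlap in TPM, and how often this occurs over all genes was not computed. MCL1 and BCL2L1 made up nearly all of them, with BCL2 giving 0.620% to 1.09%. In CPM, MCL1, BCL2L1 and BCL2 each overlapped between the conditions. Their sum in CPM was not computed, and overlap of single genes does not tell whether a sum overlaps. The effectors summed to 218.2, 203.5 and 224.0 TPM and to 221.1, 196.8 and 214.2 TPM. The activators lay at 55.1 ± 2.48 TPM with control siRNA and 55.3 ± 0.866 TPM with FOXL2 siRNA (SD, n = 3), and the sensitisers at 113.9 ± 3.92 and 107.0 ± 9.20 TPM. The ratio of all BH3-only to prosurvival transcripts, on the log2 scale, was -0.74, -0.76 and -0.70 with control siRNA and -0.84, -0.91 and -0.90 with FOXL2 siRNA, so all FOXL2 siRNA libraries had the lower ratio. The log2 ratio of MCL1 to BAK1, a pair whose proteins bind each other, was 2.40, 2.44 and 2.52 against 2.26, 2.24 and 2.10. These ratios were taken from TPM, which divides by an effective length that RSEM derives, and were not computed in CPM. How often such ratios do not overlap over all genes was not computed either. In CPM, FOXL2 siRNA replicate 2 lay inside the control range for both genes, at 310.4 for MCL1 and 36.5 for BAK1. Both other ratios computed overlapped between the conditions. The log2 ratio of prosurvival to effector transcripts was 0.34, 0.47 and 0.35 with control siRNA and 0.49, 0.57 and 0.46 with FOXL2 siRNA, and that of BCL2L1 to BAX was -0.54, -0.42 and -0.54 against -0.57, -0.14 and -0.34. These sums and ratios are descriptions, with no test, because the members were grouped with their values known, and they say nothing of protein levels.

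RSEM also gives each gene a length that is weighted by the isoforms it assigned, so a shift in length would show a shift in isoform use. BCL2L1, whose long and short forms have opposite effects on survival, had lengths of 2256, 2254 and 2290 nt with control siRNA and 2272, 2279 and 2325 nt with FOXL2 siRNA. These values overlapped and stayed within 3.08% of their mean. The widest range was that of BCL2L11, at 2477, 2308 and 1965 nt with control siRNA and 2401, 2405 and 1933 nt with FOXL2 siRNA. Replicate 3 was the shortest in both conditions. MCL1 ranged over 21.5% of its mean length and BCL2 over 16.4%, with FOXL2 siRNA replicate 2 as the longest for MCL1 (3762 nt) and the shortest for BCL2 (5786 nt). TPM divides by RSEM's effective length, which is derived from this length. The library with the shortest BCL2 was the one with its highest TPM. The lengths of the conditions did not overlap for 1 of 10 members, BAK1, beside 9.21% of all genes, and its whole range was 0.190% of its mean. Single reads of 75 bases resolve isoforms poorly, and no isoform values were used here.

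**Figure D4:**
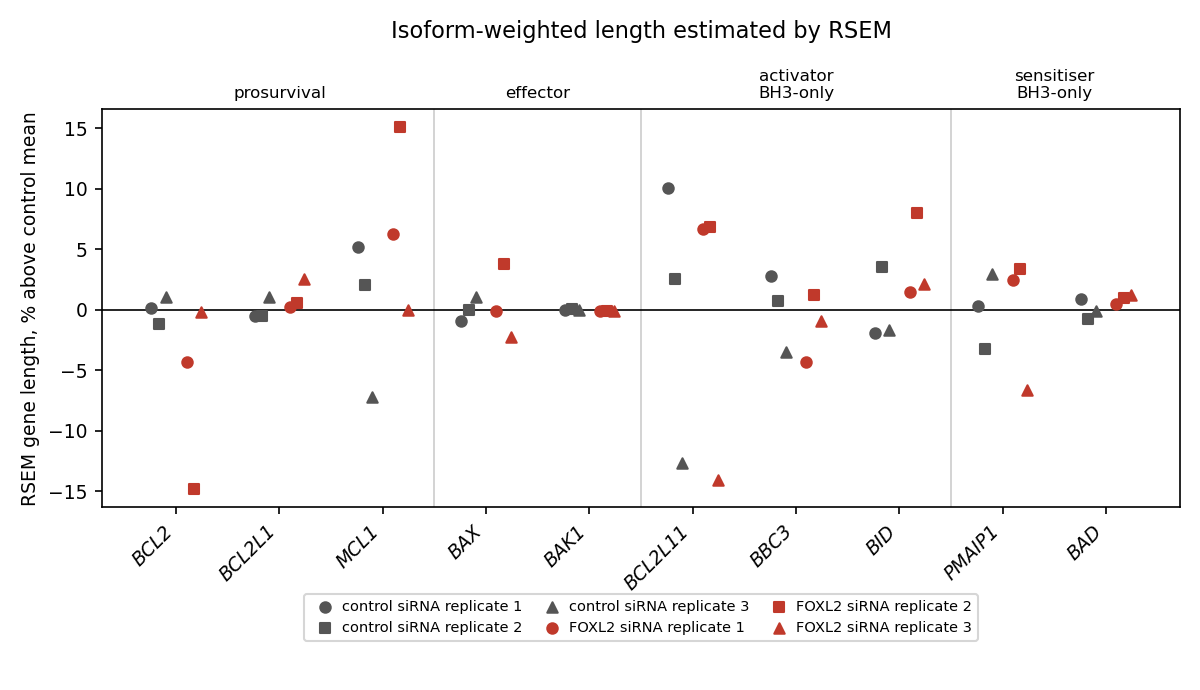
RSEM's isoform-weighted length of each gene in each library, as percent above the mean of the control siRNA libraries (grey: control siRNA, red: FOXL2 siRNA, a symbol for each replicate number). BCL2L11, MCL1 and BCL2 spread over 16.4% to 24.2% of their mean length, and BAK1 stays at 0.

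Since FOXL2 is a forkhead factor, the promoters of the members, 250 bases before to 50 after each RefSeq start (GRCh38.p14), were searched for the forkhead core TGTTTA or its reverse complement TAAACA. The core was in 12.3% of all 35116 promoters. It was in the 1 promoter listed for BCL2L11 and in 1 of 5 listed for BID, and in none of those listed for BCL2, BCL2L1, BAX, BAK1, BBC3, PMAIP1 and BAD. MCL1 had no entry. The windows around both matches are shown because these are the only members with the core, with the core in capitals, on the coding strand.
BCL2L11: gagttactccggTAAACAcgccagggacgg
BID: ataattaaagaaTAAACAacaagcacaggg

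The first window lies at chr2:111120680-111120709 (plus strand), with the core 222 bases before the start, and the second at chr22:17774863-17774892 (minus strand), with the core 215 bases before the start. A match is a description of the letters and does not show a bound site. BCL2L11, with the core, had a log2 fold change of 0.36, and BID, with it in 1 of its promoters, had 0.08. BAK1 and BBC3, without the core in the promoter listed for each, had 0.34 and -0.26. A link between the core and the fold changes was not tested.

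The study also concerns G2-rich RNA, in which pairs of G follow each other at short intervals. A run of 8 G doublets with gaps of 1 to 4 bases was present in the longest annotated transcript of 19.3% of 15530 tested genes. Any base, G included, could stand in a gap. The study's consensus allows the widest gap only once and fixes an A in several others, so this search was looser. Of the 10 members the run was found in MCL1 alone, inside the coding sequence. The shortest stretch that holds the run is shown because it is the only one in the family.
MCL1: gggggccggcttgggggccggcagcggcgg

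The genes around the family were taken from 7 lists of the apoptosis pathway with 82 genes, of which 73 were tested. None of the 73 was called by edgeR, 18 had an unadjusted p below 0.05 (10 higher, 8 lower), against 13.4% of all genes (6.67% higher, 6.78% lower), and DESeq2 called 4, against 3.06% of the genes it tested. Their median log2 fold change was 0.01, beside 0.01 over all genes. Of 13 other BCL2 relatives 7 were tested, and 1 of these had an unadjusted p below 0.05. It was BCL2L12, at 28.6 ± 0.647 CPM with control siRNA and 33.0 ± 2.96 CPM with FOXL2 siRNA (log2 fold change 0.21, edgeR adjusted p = 0.332). The other 6, among them the prosurvival genes BCL2A1 and BCL2L10 and the BH3-only genes BIK and HRK, had counts too low to test.

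Downstream of the family, the list of the apoptosome and caspases had 9 tested genes, with 3 at an unadjusted p below 0.05 (2 higher, 1 lower), against 13.4% of all genes. The smallest p was that of APAF1, the scaffold that cytochrome c assembles into the apoptosome, at 37.9, 35.8 and 35.4 CPM against 45.6, 43.9 and 40.6 CPM. The conditions did not overlap, with a log2 fold change of 0.25 (edgeR adjusted p = 0.203). Of the inhibitors of apoptosis and their antagonists 7 of 8 were tested and 1 had an unadjusted p below 0.05. It was BIRC3, an E3 ligase of the NF-kappaB response, at 1.94 ± 0.471 and 3.13 ± 0.601 CPM (log2 fold change 0.68, edgeR adjusted p = 0.266).

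Upstream, the death receptor list had 10 of 12 genes tested, with 3 at an unadjusted p below 0.05 (1 higher, 2 lower), against 13.4% of all genes. TNFRSF10B, a receptor for TRAIL, had the smallest p, at 142.4 ± 8.52 CPM against 171.0 ± 11.01 CPM (log2 fold change 0.26, edgeR adjusted p = 0.178). The list of p53 and its targets had 15 genes tested, with 6 at an unadjusted p below 0.05 (3 higher, 3 lower), against 13.4% of all genes, and 3 called by DESeq2, against 3.06%. Genes of 1 list are not independent, and the share was not tested. XPC, a DNA damage sensor, had the smallest p, at 44.9, 46.1 and 44.3 CPM with control siRNA and 36.2, 35.5 and 38.3 CPM with FOXL2 siRNA (log2 fold change -0.30, edgeR adjusted p = 0.121, DESeq2 adjusted p = 0.0335). From the same list DESeq2 also called MDM2, the ubiquitin ligase of p53, with a log2 fold change of 0.39 (DESeq2 adjusted p = 0.0110, edgeR adjusted p = 0.125), and AEN, a nuclease induced by p53, with -0.31 (DESeq2 adjusted p = 0.0493, edgeR adjusted p = 0.185), both named here after their values were seen.

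Of the 9 transcription factors upstream of BH3-only genes, MYC was the 1 with an unadjusted p below 0.05, at 103.8 ± 5.00 and 123.4 ± 6.61 CPM (log2 fold change 0.25, edgeR adjusted p = 0.177). Without FOXL2 siRNA replicate 2 it was 0.29 with an edgeR adjusted p of 0.0374. The list of turnover and sequestration partners, among them ligases, deubiquitinases, 14-3-3 proteins and the VDAC channels of the outer mitochondrial membrane, had 16 genes tested, with 3 at an unadjusted p below 0.05 (1 higher, 2 lower), a share close to the 13.4% of all genes. BTRC, the F-box protein beta-TrCP, which marks BIM and MCL1 for degradation, came closest to the threshold of all 73, at 17.7, 18.7 and 18.7 CPM with control siRNA and 26.3, 24.4 and 24.7 CPM with FOXL2 siRNA. The conditions did not overlap, with a log2 fold change of 0.45 (SE 0.0734, edgeR adjusted p = 0.0530, DESeq2 adjusted p = 0.00468). With RSEM's effective lengths as offsets, which removes the part of a count that follows the estimated length, the edgeR value of BTRC was 0.08 (adjusted p = 0.842), and without FOXL2 siRNA replicate 2 it was 0.47 (adjusted p = 0.0137).

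**Figure D5:**
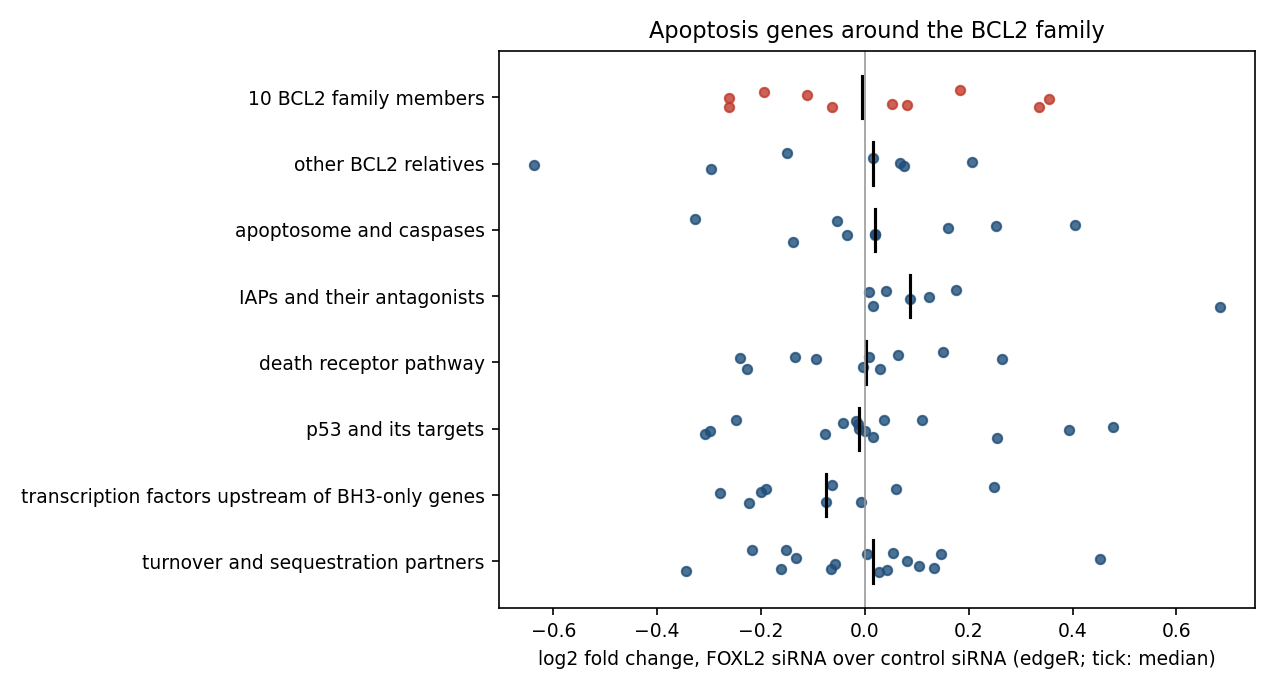
Log2 fold change from edgeR, FOXL2 siRNA over control siRNA, of the 10 members (red) and of the tested genes in 7 lists of the apoptosis pathway (blue), with the median of each list as a black tick. The medians lie near 0, and the points reach from about -0.6 to 0.7 with no gene past an adjusted p of 0.05.

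The member with the smallest p, BAK1, was set beside every other gene by its log2 CPM over the 6 libraries. The 5 genes most like it by Pearson's r were COPZ1 (0.998), ENSG00000230074 (0.997), EVA1A (0.994), MRPS7 (0.989) and CLYBL (0.988), where the points share the library and its normalization. COPZ1, a coatomer subunit, lay at 146.0, 146.0 and 146.1 CPM with control siRNA and 166.5, 146.5 and 161.1 CPM with FOXL2 siRNA. Like BAK1, it was at the control level in replicate 2 and above it in replicates 1 and 3. MRPS7, a mitochondrial ribosomal protein, lay at 54.0, 54.4 and 54.4 CPM and at 66.7, 54.6 and 65.8 CPM. A highest r taken from all genes tested, over 6 points, is a ranking with no p.

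Of 10 markers of other cell types that could be mixed with the line, 5 were tested and none was called. Of the 5, 1 had an unadjusted p below 0.05, against 13.4% of all genes. INSL3 and DDX4 were at 0 in every library, PTPRC, the common leukocyte antigen, reached at most 1.01 TPM, and EPCAM and CDH1 at most 0.34 and 0.52 TPM. Their summed level was 80.5 to 92.4 TPM with control siRNA and 58.6 to 77.7 TPM with FOXL2 siRNA. Most of it was CD68, a lysosomal protein abundant in macrophages, with a log2 fold change of -0.29 (edgeR unadjusted p = 0.0112, adjusted p = 0.238). The CPM of CD68 did not overlap between the conditions, as for 20.5% of all genes tested. SOX9, a factor of Sertoli and cartilage cells, lay between 5.09 and 9.55 TPM, with a log2 fold change of 0.03. The part of this list in the values of BAK1, BCL2L11 and BBC3 was not tested.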

How the data were processed

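KGN cells transfected with FOXL2 siRNA (3 libraries) or control siRNA (3 libraries) were compared. The authors prepared stranded mRNA libraries, aligned single reads of 75 bases with STAR 2.7.6a, checked them with Picard 2.8.1 and counted with RSEM 1.3.1. The deposited tables list 60671 genes with an expected count, which is an estimated and not normalized count, and with TPM scaled by the authors' RSEM run to length and library. The submitters' processing notes name GRCm38, a mouse build, although the identifiers are human. No source used here names the human build or annotation. FPKM values were not used. Symbols were matched to 60401 identifiers.

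Expected counts were rounded to whole numbers, filtered with filterByExpr (15663 genes), normalized by TMM and compared with edgeR 4.0.16 (glmQLFit and glmQLFTest, Benjamini-Hochberg adjustment over all genes, threshold 0.05) in R 4.3.3. SE is the log2 fold change divided by the square root of F. CPM values are TMM-normalized and errors are SDs of 3 libraries. The totals of 23843192 to 28791954 counts set the precision, and counting errors cover counting only. The alternatives were DESeq2 1.42.0, limma 3.58.1 (voom, and log2 TPM with 1 or 0.1 added), DESeq2's size factors, other filters, the replicate number as a block, effective-length offsets and each library left out. The fits were checked on simulated data.

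Genes named are FOXL2, all members, the gene with the smallest p of each list and the 5 most like BAK1, beside markers of cell types and the genes said to be chosen after their values were seen. The members and lists were chosen with earlier results of these data known. Positions are those of GENCODE v29 on GRCh38, possibly another release than the authors used, and promoters are RefSeq's on GRCh38.p14. Non-whole parts were at most 0.530% of a member's counts, for BCL2L11. Genes such as MIR4435-2HG (with BCL2L11) and GPR137 (with BAD) overlap members on the opposite strand, and no source used here says whether the counting used strand. The software for tables and figures was Python 3.11.15, pandas 2.3.3 and matplotlib 3.10.9.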

Additional observations from a re-analysis of the deposited data

How the results depend on the processing

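Over 17 alternatives for each member, 167 of 170 values kept their direction and, where an adjusted p was given, their side of the threshold. The exceptions were BAK1, called without the filter on low counts and without FOXL2 siRNA replicate 2, and BAD, whose log2 fold change of -0.06 became 0.001023, and so of opposite sign, without control siRNA replicate 3, and was -0.1041 without control siRNA replicate 2. The count of members called was thus 0, but 1 without the filter and 0 to 1 with each library left out. The log2 fold change of BAK1 ranged from 0.22 to 0.47, that of BCL2L11 from 0.274 to 0.435, that of BBC3 from -0.33 to -0.17 and that of BCL2 from -0.38 to -0.09. Without FOXL2 siRNA replicate 2, BAD was at -0.01 and BCL2L1 at 0.02. Over all genes the 41 calls became 353 with DESeq2, 13 with limma on log2(TPM + 1) and 13 on log2(TPM + 0.1), 737 without the filter, 67 when genes needed a mean count of 50 or more, 346 with effective-length offsets in DESeq2 and 5 at an adjusted p below 0.01. With each library left out they ranged from 0 (without control siRNA replicate 1) to 534 (without FOXL2 siRNA replicate 2), with 109 without FOXL2 siRNA replicate 1, 4 without FOXL2 siRNA replicate 3, and 3 and 2 without control siRNA replicates 2 and 3. Of the 73 pathway genes, 0 were called, but 4 with DESeq2 (MDM2, XPC, BTRC and AEN), 6 without the filter, 1 (BTRC) at a mean count of 50 or more, 3 (BNIP3L, MDM2 and MYC) with offsets in DESeq2 and 0 to 4 with each library left out, the 4 being BNIP3L, MYC, BTRC and YWHAG without FOXL2 siRNA replicate 2 (BNIP3L at -0.59, in place of -0.30, and YWHAG at -0.59, in place of -0.34). These names were chosen after their values were seen. By effective length, 0 members had lengths that did not overlap, in place of 1. Apart from the smaller set of libraries or genes, the cause of these moves was not tested.

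With the replicate number as a block, edgeR called 11 genes and DESeq2 189, with no member among them, and DESeq2 called 1 pathway gene, MDM2. BCL2L11 had no adjusted p in that DESeq2 fit. Deviations of same-numbered libraries correlated at -0.03, 0.05 and 0.05, so no pairing by number was seen. With 3 libraries per condition and a different siRNA pool in each FOXL2 siRNA library, a weak pairing could be missed.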
